A study of Drosophila melanogaster with 18 samples.

Results

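The genes switched up in the *modulo* mutant testis are a set of 34 genes out of 17575 in the deposited tables. They were chosen from total RNA-seq read counts scaled to CPM (counts per 1e6 counts of the replicate). A gene entered the set when its lowest CPM among the mutant replicates was at least 5 times its highest CPM among the control replicates and its mean mutant CPM was at least 0.5. Long noncoding, antisense, small nucleolar, small nuclear and mitochondrial genes were left out by their symbols, as were *Cp7Fb* and *RabX2*. Of 61 genes that met both CPM conditions, 27 were left out in this way. Because the mutant and control values chose these genes, their levels and ratios are given below as a description and were not tested. Tests are given only for genes outside the set.

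The gene *modulo* encodes an RNA-binding protein related to vertebrate Nucleolin, one of the main proteins of the nucleolus, where ribosomes are assembled. The study compared testes of *modulo*-mutant males, which carry the alleles modL8/mod07570, with testes of control males, which carry mod07570/+ and are labelled wt. Both genotypes therefore carry mod07570 on chromosome 3, and the control keeps a wild-type copy of *modulo*. Males were 1 to 3 days old and kept at 25C, testes were dissected whole, and each genotype has 3 biological replicates, each sequenced on 3 lanes. The number of males pooled in a replicate is not given in the sources used here. The study calls control males of this genotype siblings of the mutants in its PCR assays, and whether the sequenced males were siblings is not given in the sources used here. The other copy of chromosome 3 differs between the genotypes, so strain differences and loss of *modulo* cannot be told apart.

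A testis holds germ cells at every stage of spermatogenesis, from stem cells through spermatocytes to elongating spermatids, together with the somatic hub and cyst cells that support them. Male germ cells use a large share of all genes, whereas odorant receptors, antimicrobial peptides and photoreceptor arrestins are best known from sensory organs, fat body and eyes. Glutathione S-transferases join glutathione to reactive compounds and take part in the removal of toxins. In whole testes, more cells of a type cannot be told apart from more RNA per cell.

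Total counts were between 90898395 and 107435907 in the mutant replicates and between 87119347 and 94916110 in the control replicates, so that 3 counts correspond to between 0.0279 and 0.0344 CPM. *modulo* itself (*mod*) had 2.02, 1.91 and 1.23 CPM in the mutant against 22.6, 20.3 and 23.0 CPM in the control, which is the direction the labels give. The same rule with the genotypes exchanged finds 82 genes (0.554% of 14810 eligible genes), against the 34 members (0.230%). In edgeR's quasi-likelihood test of 14059 genes, 2043 (14.5%) were called higher in the mutant and 2503 (17.8%) lower at a Benjamini-Hochberg adjusted p under 0.05, and the median log2 fold change of all tested genes was 0.02. With the replicate number as a block the calls were 3119 higher (22.2%) and 3288 lower (23.4%). All 34 members passed that test's filter on low counts.

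The levels of the members covered a wide range in both genotypes. Their mean mutant CPM ran from 0.602 to 257 with a median of 6.32, and their mean control CPM from 0.0220 to 25.4 with a median of 0.402. The ratio of mean CPM, mutant over control, was at least 100 in 4 members, 20 to 100 in 11, 10 to 20 in 10 and under 10 in 9, with a median of 18.4. In 8 members no control replicate had more than 10 counts. Per kilobase of exon, the median member stood at percentile 43.5 of tested genes in the mutant and percentile 10.8 in the control. The lowest in the mutant was *phyl*, at percentile 15.2 in the mutant and 0.200 in the control, and the highest was the ribosomal pseudogene *2SrRNA-Psi:CR40677*, at percentile 99.99 in the mutant and 99.3 in the control. That pseudogene is annotated at 30 bases, shorter than a read, so scaling per kilobase inflates its rank.

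**Figure D1:**
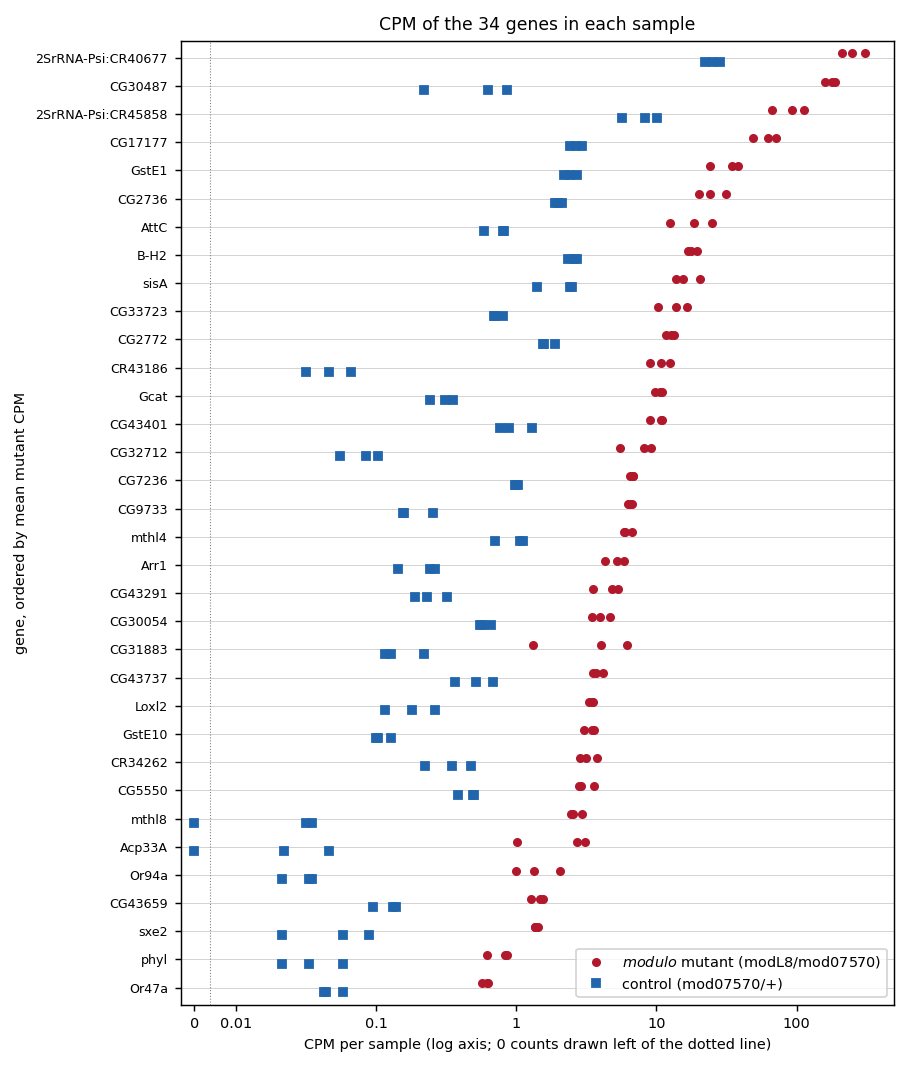
CPM of the 34 genes in each sample on a log axis, with 3 mutant replicates (circles) above 3 control replicates (squares) for each gene, in order of mean mutant CPM. By the rule the genotypes do not overlap in any gene; *CG30487* has 159 to 189 CPM in the mutant and under 1 CPM in the control, and *mthl8* and *Acp33A* each have a control replicate at 0.

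*CG30487*, a single-exon protein-coding gene of 728 bases with no role given here, had the largest ratio (FBgn0050487, 2R, 12937616 to 12938343, minus strand). It had 159, 189 and 179 CPM in the mutant replicates against 0.220, 0.853 and 0.631 CPM in the control replicates, from 16274 to 18698 counts against 20 to 81. The ratio of mean CPM was 309, with a 95% interval of 262 to 361. This interval, like those below, is an exact conditional (Clopper-Pearson) interval on the summed counts, and it covers counting error only and not the spread between replicates. Per kilobase, *CG30487* stood at percentile 96.3 of tested genes in the mutant and percentile 19.1 in the control. The mutant replicates lay close together, while control replicate 1 was the lowest of the control samples. The gene lies wholly inside *Sans*, on the opposite strand. *Sans*, which is not in the set, was called higher, with a log2 fold change of 1.33 ± 0.10 (SE, adjusted p = 0.00016, edgeR), from 8.08, 6.93 and 6.95 CPM in the mutant and 3.12, 2.79 and 3.15 CPM in the control. The genes on both sides of it did not pass the test: *SCCRO3* had a log2 fold change of -0.04 (adjusted p = 0.805, edgeR) and *Mdr49* -0.09 (adjusted p = 0.822, edgeR).

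Among the epsilon glutathione S-transferases, 2 of 14 genes are members, and they are the only members within 10 kb of each other besides a pair of ribosomal pseudogenes. *GstE1* (FBgn0034335, 2R, 18398393 to 18399223, plus strand) had 24.0, 34.8 and 38.1 CPM in the mutant against 2.20, 2.69 and 2.43 CPM in the control. The ratio was 13.2 (interval 12.1 to 14.1), and mutant replicate 1 was the lowest of the mutant samples. *GstE10* (FBgn0063499, 2R, 18396638 to 18398519, minus strand) had 3.57, 3.49 and 3.03 CPM in the mutant against 0.0991, 0.126 and 0.103 CPM in the control. Its ratio was 30.7 (interval 21.4 to 45.8), from 275 to 384 counts against 9 to 12, and here mutant replicate 3 was the lowest. The members of this pair point away from each other and share 127 bases at their starts, and the counting used strand.

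Of the 8 other epsilon genes in the same cluster, *GstE2* to *GstE9*, 0 were called higher and 1 lower by edgeR, beside 14.5% and 17.8% of all tested genes, with a median log2 fold change of -0.20. DESeq2 and an unadjusted p under 0.05 each gave 0 higher and 2 lower, and the replicate number as a block gave 0 and 3. *GstE5* was called lower, with 1.80, 2.65 and 2.99 CPM in the mutant against 4.81, 6.91 and 6.03 CPM in the control (log2 fold change -1.21 ± 0.23 SE, adjusted p = 0.00785, edgeR). *GstE2*, whose start is 262 bases beyond the end of *GstE1*, had 3.92, 6.69 and 6.85 CPM in the mutant against 3.78, 6.48 and 4.96 CPM in the control (log2 fold change 0.24 ± 0.28 SE, adjusted p = 0.548, edgeR). The other 4 epsilon genes, *GstE11* to *GstE14*, lie elsewhere on 2R and were not called, and with the replicate number as a block *GstE11* and *GstE12* were called higher (adjusted p of 0.0426 and 0.0418, edgeR). *Idgf5*, a chitinase-like growth factor gene 1355 bases beyond the end of *GstE10*, was called lower, with 2.32, 2.67 and 2.61 CPM in the mutant against 7.82, 7.33 and 7.37 CPM in the control (log2 fold change -1.51 ± 0.09 SE, adjusted p = 7.82e-05, edgeR).

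**Figure D2:**
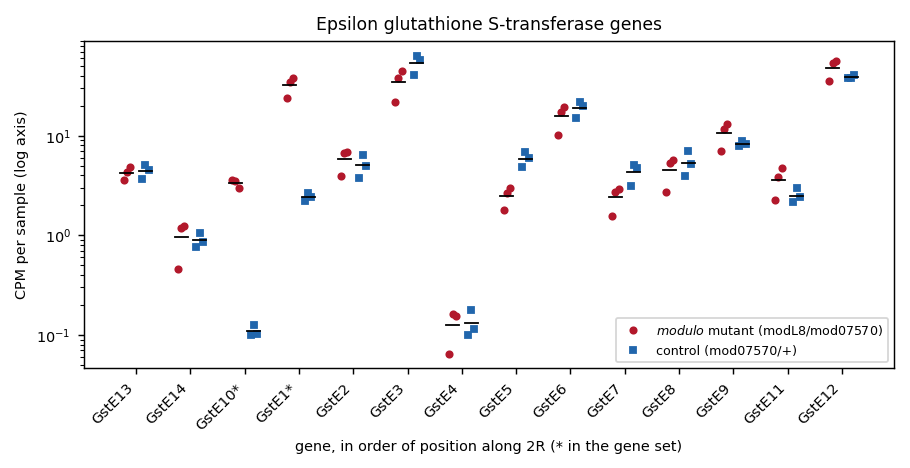
CPM per sample of the 14 epsilon glutathione S-transferase genes on a log axis, in order of position along 2R, with 3 mutant replicates (circles) left of 3 control replicates (squares) and their mean as a black line. *GstE10* and *GstE1* (asterisks) separate widely, *GstE5* lies lower in the mutant, and in the other 11 the mutant and control values overlap or were not called.

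The delta family of the same enzymes has no member in the set. Of its 9 tested genes 2 were called higher and 2 lower, beside 14.5% and 17.8% of all tested genes. *GstD7* was called higher, with 2.91, 6.34 and 6.20 CPM in the mutant against 1.98, 1.84 and 1.77 CPM in the control (log2 fold change 1.52 ± 0.29 SE, adjusted p = 0.00807, edgeR). *GstD2* was called lower, with 0.838, 1.05 and 1.47 CPM in the mutant against 2.92, 4.52 and 3.87 CPM in the control (log2 fold change -1.70 ± 0.27 SE, adjusted p = 0.00352, edgeR). On a list of 12 genes of detoxification, *GstE1* is a member, and of the other 11, all tested, 5 were called higher, beside 14.5% of all tested genes, and 1 lower, beside 17.8% (2 lower with the replicate number as a block, beside 23.4%), and their median log2 fold change was 0.33 beside 0.02 for the whole table. The higher ones were *GstD5* and the cytochrome P450 genes *Cyp6a2*, *Cyp6a23*, *Cyp6w1* and *Cyp4e2*. *Cyp6a2* had 1.67, 2.02 and 1.97 CPM in the mutant against 0.671, 0.400 and 0.574 CPM in the control (log2 fold change 1.84 ± 0.20 SE, adjusted p = 0.000785, edgeR). The calls of *GstD5* and *Cyp6w1* were lost when single replicates were left out, with adjusted p up to 0.0953 and 0.145.

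*AttC* encodes an attacin, an antimicrobial peptide that the immune pathways of flies induce (FBgn0041579, 2R, 13393705 to 13394667, plus strand). It had 12.5, 18.5 and 24.8 CPM in the mutant against 0.583, 0.801 and 0.815 CPM in the control. The ratio was 25.4 (interval 21.6 to 28.8), and mutant replicate 1 was the lowest and replicate 3 the highest, a spread of 33.0% of the mean (coefficient of variation, n = 3). Of the other attacins, *AttB* was called lower, with 0.773, 0.920 and 0.594 CPM in the mutant against 2.29, 2.47 and 2.34 CPM in the control (log2 fold change -1.58 ± 0.18 SE, adjusted p = 0.000844, edgeR), whereas *AttA* and *AttD* stayed at or under 0.111 CPM in every sample and were not tested.

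Of the 13 antimicrobial peptide genes on the list besides *AttC*, 8 were tested, 3 were called higher and 1 lower, beside 14.5% and 17.8% of all tested genes, with a median log2 fold change of 0.56. *Mtk*, which encodes metchnikowin, had 2.05, 2.77 and 3.59 CPM in the mutant against 0.605, 0.622 and 0.677 CPM in the control (log2 fold change 2.20 ± 0.23 SE, adjusted p = 0.000666, edgeR). *Def*, which encodes defensin, had 0.149, 0.415 and 0.539 CPM in the mutant against 0.0220, 0.0421 and 0.0344 CPM in the control (log2 fold change 3.47 ± 0.61 SE, adjusted p = 0.00554, edgeR). In both, as in *AttC*, mutant replicate 1 was the lowest mutant sample and replicate 3 the highest. Among all tested genes 43.9% were lowest in mutant replicate 1 and 31.3% highest in mutant replicate 3. *CecC*, a cecropin gene, was also called higher, with a log2 fold change of 0.98 ± 0.25 (SE, adjusted p = 0.026, edgeR), and this call was lost in 4 of 6 fits that left out a replicate, with adjusted p up to 0.0977. *DptA*, a diptericin gene, had a log2 fold change of 0.18 (adjusted p = 0.504, edgeR) and *Drs*, which encodes drosomycin, -0.61 (adjusted p = 0.286, edgeR). Of 7 tested blood cell markers 0 were called in either direction by edgeR, by DESeq2 or at an unadjusted p under 0.05, and 1 was called lower with the replicate number as a block. Their summed CPM was 83.6 to 93.3 in the mutant and 88.3 to 98.4 in the control.

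**Figure D3:**
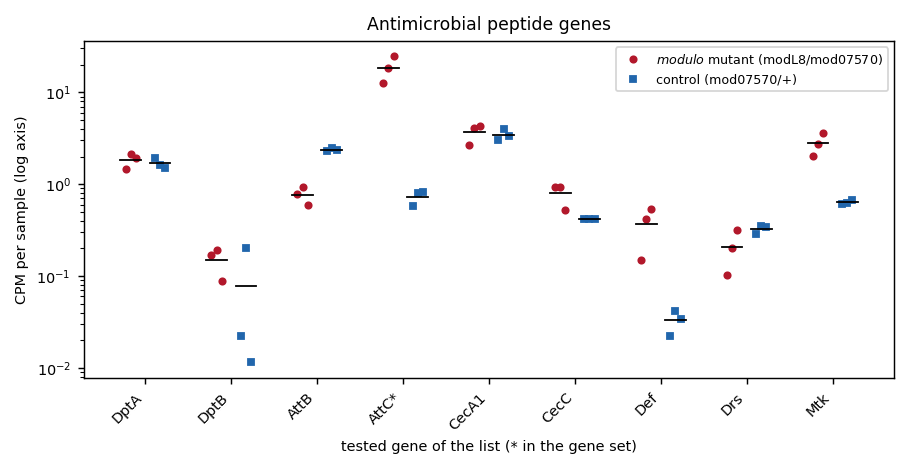
CPM per sample of the 9 tested antimicrobial peptide genes on a log axis, with 3 mutant replicates (circles) left of 3 control replicates (squares) and their mean as a black line. *AttC* (asterisk), *Mtk*, *Def* and *CecC* lie higher in the mutant, *AttB* lies lower, and *DptA*, *DptB*, *CecA1* and *Drs* were not called.

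A further 3 members belong to families with parts in defence or uptake. *CG2736* encodes a receptor of the CD36 family of scavenger receptors (FBgn0035090, 2R, 24973431 to 24975341, minus strand). It had 31.5, 24.3 and 20.3 CPM in the mutant against 2.11, 1.97 and 1.88 CPM in the control, a ratio of 12.8 (interval 11.8 to 14.1), and mutant replicate 1 was the highest here. Of the 11 other CD36-family genes, all tested, 1 was called higher and 3 lower, beside 14.5% and 17.8% of all tested genes, with a median log2 fold change of -0.14. *CG10345* was called higher at 0.65 ± 0.08 (log2 fold change ± SE, adjusted p = 0.001, edgeR) and *CG7227* lower at -2.42 ± 0.27 (adjusted p = 0.000817, edgeR), together with *dsb* and *Snmp1*. With the replicate number as a block the counts were 2 higher and 3 lower. *CG9733*, which encodes a serine protease (FBgn0039759, 3R, 30243978 to 30246703, minus strand), had 6.64, 6.25 and 6.44 CPM in the mutant against 0.154, 0.158 and 0.253 CPM in the control, a ratio of 34.2 (interval 26.1 to 46.5). Its mutant replicates were among the closest of the set, with a coefficient of variation of 3.01%. The serine protease gene *CG9737*, 665 bases downstream on the same strand, was called lower, with 3.42, 4.19 and 3.80 CPM in the mutant against 7.57, 8.23 and 10.04 CPM in the control (log2 fold change -1.13 ± 0.13 SE, adjusted p = 0.00104, edgeR). *CG5550*, a fibrinogen-related gene, had 2.89, 3.57 and 2.78 CPM in the mutant against 0.385, 0.495 and 0.494 CPM in the control.

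Receptors and signalling genes make up 6 members. The methuselah-like genes, which encode G protein-coupled receptors, contribute *mthl4* and *mthl8*. *mthl8* (FBgn0052475, 3L, 22428 to 26308, plus strand) had 2.45, 2.94 and 2.54 CPM in the mutant against 0, 0.0316 and 0.0344 CPM in the control, that is 263, 291 and 231 counts against 0, 3 and 3. The ratio was 120.1 (interval 54.9 to 328), with 80.1 without control replicate 1, and per kilobase it stood at percentile 21.3 of tested genes in the mutant and percentile 0.0285 in the control. *mthl4* (FBgn0034219, 2R, 17445185 to 17447483, minus strand) had 6.71, 5.91 and 5.96 CPM in the mutant against 1.11, 0.706 and 1.06 CPM in the control, a ratio of 6.47 (interval 5.72 to 7.45), the lowest of the set. Of its 18 lane values 17 held a fraction of a read pair, so part of its count was divided with other positions. Its neighbour *mthl3*, 1049 bases upstream on the same strand, had a log2 fold change of 0.16 ± 0.17 (SE, adjusted p = 0.508, edgeR). Of 14 methuselah-family genes outside the set, 13 were tested, 0 were called higher and 2 lower, beside 14.5% and 17.8% of all tested genes. Those calls, *mthl10* and *mthl11*, were lost in most fits that left out a replicate (adjusted p up to 0.162 and 0.0978, edgeR). DESeq2 and an unadjusted p under 0.05 each gave 1 higher and 3 lower. The replicate number as a block gave 0 and 4, beside 22.2% and 23.4% of all tested genes.

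The odorant receptor genes *Or94a* and *Or47a* are among the 5 members with the lowest mean mutant CPM. *Or94a* (FBgn0039033, 3R, 22987281 to 22988503, plus strand) had 2.04, 1.32 and 0.990 CPM in the mutant against 0.0330, 0.0211 and 0.0344 CPM in the control, or 219, 131 and 90 counts against 3, 2 and 3. Its ratio was 49.2 (interval 25.4 to 118), with mutant replicate 1 the highest. *Or47a* (FBgn0026386, 2R, 11250368 to 11251913, plus strand) had 0.624, 0.566 and 0.616 CPM in the mutant against 0.0440, 0.0421 and 0.0574 CPM in the control, a ratio of 12.6 (interval 7.21 to 24.2), and its mutant replicates were close to each other. Of the 58 other odorant receptor genes, 21 had enough counts to test, 1 was called higher and 6 lower, beside 14.5% and 17.8% of all tested genes, with a median log2 fold change of -0.41. *Or94b*, 791 bases downstream of *Or94a*, had 0.866, 0.769 and 0.506 CPM in the mutant against 0.760, 0.411 and 0.448 CPM in the control (log2 fold change 0.46 ± 0.30 SE, adjusted p = 0.283, edgeR), so the genotypes overlapped. *Or22b* was called lower, with a log2 fold change of -1.82 ± 0.13 (SE, adjusted p = 0.000138, edgeR). *Orco*, the partner that odorant receptors need to reach sensory membranes, had 0.400, 0.303 and 0.286 CPM in the mutant against 0.385, 0.432 and 0.528 CPM in the control (log2 fold change -0.38 ± 0.23 SE, adjusted p = 0.245, edgeR).

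*Arr1*, which encodes an arrestin that ends rhodopsin signalling in photoreceptors, had 4.29, 5.23 and 5.89 CPM in the mutant against 0.143, 0.263 and 0.241 CPM in the control. The ratio was 23.8 (interval 18.1 to 31.1), and the lowest mutant sample was replicate 1. *Arr2*, the other photoreceptor arrestin, had too few counts to test, and *krz*, the arrestin of other tissues, was called lower (log2 fold change -0.88 ± 0.07 SE, adjusted p = 0.000227, edgeR). Of 15 opsin and phototransduction genes 10 were tested, 1 was called higher and 2 lower, beside 14.5% and 17.8% of all tested genes. Their median log2 fold change was -0.02, and *ninaE*, the main rhodopsin of the eye, was at or under 0.172 CPM in every sample. *CG30054*, related to the G protein subunit gene *Galphaq* next to it, had 4.68, 3.95 and 3.49 CPM in the mutant against 0.572, 0.548 and 0.654 CPM in the control. 17 of its 18 lane values held a fraction of a read pair. *Galphaq*, 528 bases upstream, had a log2 fold change of 0.47 ± 0.11 (SE, adjusted p = 0.018, edgeR), a call lost in 3 of 6 fits that left out a replicate (adjusted p up to 0.0688), and *CG17760*, the related gene downstream, had -0.13 ± 0.32 (SE, adjusted p = 0.789, edgeR). Of 8 tested neuronal markers 0 were called higher and 4 lower by edgeR, beside 14.5% and 17.8% of all tested genes. DESeq2 gave the same counts, and an unadjusted p under 0.05 gave 0 and 5. Their summed CPM was 33.6 to 35.9 in the mutant and 48.9 to 63.3 in the control. Most of that difference came from *brp*, with 6.69, 3.53 and 2.51 CPM in the mutant against 26.9, 14.4 and 20.9 CPM in the control.

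Developmental regulators in the set are *B-H2*, *sisA* and *phyl*. *B-H2*, which encodes a Bar homeodomain protein that acts in eye and sensory organ formation (FBgn0004854, X, 17314581 to 17324175, plus strand), had 16.8, 17.5 and 19.5 CPM in the mutant against 2.56, 2.33 and 2.71 CPM in the control. The ratio was 7.08 (interval 6.53 to 7.66), and no replicate of either genotype stood apart. Its paralog *B-H1* had 0 counts in all mutant replicates and 0.0211 CPM at most in the control, and was not tested. *sisA*, which encodes a bZIP protein that counts X chromosomes in the early embryo by activating *Sxl* (FBgn0003411, X, 11321579 to 11322357, minus strand), had 15.4, 20.4 and 13.8 CPM in the mutant against 2.51, 1.41 and 2.40 CPM in the control, a ratio of 7.85 (interval 7.26 to 8.65). Mutant replicate 2 was the highest and control replicate 2 the lowest. *Sxl* itself had 22.4, 16.2 and 13.4 CPM in the mutant against 21.2, 14.0 and 18.5 CPM in the control (log2 fold change 0.01 ± 0.21 SE, adjusted p = 0.965, edgeR), and *upd1*, another X-linked signal element, had a log2 fold change of -0.39 ± 0.18 (SE, adjusted p = 0.144, edgeR, and 0.00913 with the replicate number as a block).

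*phyl* encodes an adaptor that with *sina* directs the repressor *ttk* to degradation during photoreceptor and bristle formation. It had 0.828, 0.617 and 0.858 CPM in the mutant against 0.0330, 0.0211 and 0.0574 CPM in the control, from 61 to 89 counts against 2 to 5. Neither *sina*, *ttk* nor *ebi*, its partners, was called, with log2 fold changes of -0.10, 0.02 and 0.13. At 1092 bases upstream on the same strand lies *lncRNA:CR45277*, which met both CPM conditions of the rule and was left out for its symbol, with 0.577, 0.809 and 0.649 CPM in the mutant against 0.0110, 0.0211 and 0 CPM in the control. *Achl*, 2571 bases downstream on the opposite strand, was called higher, with a log2 fold change of 0.96 ± 0.12 (SE, adjusted p = 0.00144, edgeR).

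Enzymes and secreted products make up a further 6 members. *Gcat* encodes glycine C-acetyltransferase, which acts in threonine and glycine breakdown (FBgn0036208, 3L, 11798948 to 11800861, minus strand). It had 9.83, 10.6 and 10.99 CPM in the mutant against 0.352, 0.242 and 0.310 CPM in the control, a ratio of 34.8 (interval 27.9 to 43.9), and its mutant replicates differed little. *Klp68D*, 72 bases downstream of *Gcat* on the opposite strand, had a log2 fold change of 0.12 ± 0.08 (SE, adjusted p = 0.294, edgeR). *CG2772*, a predicted lipase gene (FBgn0031533, 2L, 3445992 to 3447589, plus strand), had 11.7, 12.7 and 13.4 CPM in the mutant against 1.54, 1.57 and 1.89 CPM in the control, a ratio of 7.55 (interval 6.84 to 8.34). *Loxl2*, a lysyl oxidase gene whose enzymes cross-link extracellular matrix, had 3.53, 3.47 and 3.32 CPM in the mutant against 0.264, 0.179 and 0.115 CPM in the control, a ratio of 18.5 (interval 13.9 to 24.9). Its paralog *Loxl1* had a log2 fold change of -0.05 ± 0.23 (SE, adjusted p = 0.878, edgeR), with overlapping genotypes. *CG7236*, a kinase gene related to cyclin-dependent kinases, had the closest mutant replicates of the set, at 6.82, 6.82 and 6.50 CPM against 1.02, 1.00 and 0.976 CPM in the control. *sxe2*, which encodes an enzyme of the lipase family with sex-specific expression, had 1.37, 1.44 and 1.35 CPM in the mutant against 0.0881, 0.0211 and 0.0574 CPM in the control.

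*Acp33A* encodes a seminal fluid protein of the accessory gland, a gland that is joined to the testis by the ejaculatory duct. It had 2.69, 1.01 and 3.11 CPM in the mutant against 0.0220, 0 and 0.0459 CPM in the control, or 289, 100 and 283 counts against 2, 0 and 4. The ratio was 100.3 (interval 47.0 to 281), and mutant replicate 2 was the lowest mutant sample. It was 206 without control replicate 3 and 66.9 without control replicate 2, the highest and lowest values with any 1 replicate left out. The 13 other accessory gland genes on the list summed to 262, 109 and 212 CPM in the mutant and to 439, 43.5 and 314 CPM in the control, and their median log2 fold change was -0.35. For comparison, edgeR called 14.5% of all tested genes higher and 17.8% lower, and 22.2% and 23.4% with the replicate number as a block. Of the 13 accessory gland genes 0 were called in either direction by edgeR, by DESeq2 or at an unadjusted p under 0.05, and 1 was called lower with the block. Their sum was lowest in replicate 2 of both genotypes. Relative to that sum, *Acp33A* was 1.03%, 0.924% and 1.47% in the mutant against 0.00501%, 0% and 0.0146% in the control. The rule chose *Acp33A* on its own CPM, so this share is a description too. Of 5 markers of ejaculatory duct, bulb and seminal vesicle, *Est-6* was called higher (log2 fold change 1.72 ± 0.24 SE, adjusted p = 0.00208, edgeR) and 0 lower, against 4 higher and 1 lower with DESeq2 or at an unadjusted p under 0.05 and 2 and 1 with the block. These 5 are the genes of a list of 8 whose symbols matched. They summed to 49.0 to 70.9 CPM in the mutant and 17.7 to 27.3 CPM in the control, mostly from *Est-6*. *Est-6* alone had 41.7, 64.1 and 68.3 CPM in the mutant against 23.6, 14.0 and 17.6 CPM in the control. *Gld* lay lower in the mutant, and in *Dup99B*, *Met75Ca* and *Met75Cb* the genotypes overlapped. Those overlapping genes had log2 fold changes of 3.30 ± 1.06, 2.76 ± 1.01 and 2.83 ± 1.04 in that order (SE, adjusted p of 0.0525, 0.0784 and 0.0785, edgeR). With the block, adjusted p was 0.0328 for *Dup99B* and 0.0228 for *Gld* (edgeR). The median log2 fold change of the 5 markers was 2.76. The part of these tissues in the level of *Acp33A* was not tested.

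**Figure D4:**
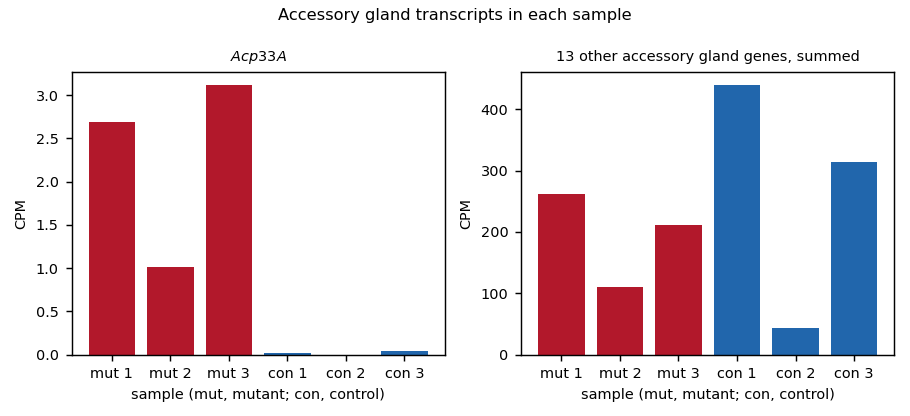
CPM of *Acp33A* (left) and summed CPM of 13 other accessory gland genes (right) in each sample, as bars from 0, with mutant replicates 1 to 3 left of control replicates 1 to 3. *Acp33A* is at 1.01 to 3.11 CPM in the mutant and under 0.05 CPM in the control. The sum of the other genes is larger in every sample and lowest in replicate 2 of each genotype. In control replicate 2 that sum is mostly *Acp95EF* and *Acp36DE*.

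Apart from *CG30487*, 8 protein-coding members have no role given here. *CG17177* (FBgn0036440, 3L, 14697313 to 14701678, minus strand), which lies inside *ome* on the opposite strand, had 49.1, 62.6 and 71.6 CPM in the mutant against 2.41, 2.64 and 2.94 CPM in the control, a ratio of 22.9 (interval 21.1 to 24.5). *CG33723* (FBgn0053723, 2L, 9440011 to 9440740, minus strand), inside *numb* on the opposite strand, had 10.2, 13.7 and 16.5 CPM in the mutant against 0.804, 0.695 and 0.700 CPM in the control, a ratio of 18.4 (interval 15.7 to 21.0). *CG32712* (FBgn0052712, X, 8433087 to 8433809, minus strand) had 5.45, 8.14 and 9.18 CPM in the mutant against 0.0550, 0.0843 and 0.103 CPM in the control, a ratio of 93.8 (interval 61.2 to 148). In all 3 of these genes mutant replicate 1 was the lowest mutant sample and replicate 3 the highest. Those places were held in 43.9% and 31.3% of all tested genes, each counted alone. *CG32712* sits between *Trf2* and *Miga*, at 75 and 113 bases, which had log2 fold changes of 0.19 ± 0.34 (SE, adjusted p = 0.705, edgeR) and 0.01 ± 0.10 (SE, adjusted p = 0.964, edgeR).

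*CG31883* varied most between mutant replicates, with 6.12, 1.31 and 4.05 CPM in the mutant against 0.220, 0.126 and 0.115 CPM in the control, a coefficient of variation of 63.0%. It is the only member that overlaps a gene on its own strand, lying inside *Oatp30B*, which had 397, 330.4 and 311 CPM in the mutant and 435, 407 and 387 CPM in the control, so reads from that gene could have been counted on it. The other 4, *CG43401*, *CG43291*, *CG43737* and *CG43659*, had mean mutant CPM of 1.43 to 10.2 and ratios of 7.28 to 18.5. Every lane value of *CG43291* held a fraction of a read pair.

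The set also holds 4 pseudogenes. *CR43186* (FBgn0262815, 2R, 15375834 to 15376481, minus strand) had 9.001, 10.8 and 12.4 CPM in the mutant against 0.0660, 0.0316 and 0.0459 CPM in the control, from 967 to 1127 counts against 3 to 6. Its ratio was 224 (interval 131 to 420.3), the second after *CG30487*. The pseudogene *CR43105*, 131 bases downstream on the same strand, was called higher, with 0.344, 0.222 and 0.297 CPM in the mutant against 0.0881, 0.105 and 0.0459 CPM in the control (log2 fold change 1.88 ± 0.36 SE, adjusted p = 0.00757, edgeR), while *dup*, 137 bases upstream on that strand, had a log2 fold change of -0.14 ± 0.21 (SE, adjusted p = 0.653, edgeR). *CR34262* had 3.77, 3.11 and 2.84 CPM in the mutant against 0.473, 0.221 and 0.344 CPM in the control, with a fraction in 13 of 18 lane values. *CG7458*, 1212 bases upstream of it on the same strand, was called higher at 1.24 ± 0.18 (log2 fold change ± SE, adjusted p = 0.0027, edgeR).

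The other pseudogenes are copies of the 2S ribosomal RNA, a short ribosomal RNA of flies, in the ribosomal repeats of the X chromosome. *2SrRNA-Psi:CR40677* (FBgn0085765, X, 23205409 to 23205438, plus strand) had 211, 249.7 and 309.6 CPM in the mutant against 28.5, 22.3 and 25.4 CPM in the control, a ratio of 10.1 (interval 9.77 to 10.3). *2SrRNA-Psi:CR45858* (FBgn0267518, X, 23214040 to 23214069, plus strand) had 66.7, 92.7 and 112 CPM in the mutant against 10.1, 5.67 and 8.22 CPM in the control, a ratio of 11.3 (interval 10.8 to 11.8). In both, mutant replicate 1 was lowest (43.9% of all tested genes) and replicate 3 highest (31.3%). Each of the 18 lane values held a fraction of a read pair. The annotated pseudogenes are 30 bases long, shorter than the reads, and near-identical, so their counts cannot be split between copies with confidence, and ribosomal RNA was depleted before sequencing. *2SrRNA:CR45864*, the remaining annotated 2S gene, was called higher, with 0.996, 1.13 and 1.63 CPM in the mutant against 0.231, 0.242 and 0.218 CPM in the control (log2 fold change 2.49 ± 0.25 SE, adjusted p = 0.000565, edgeR). The 28S pseudogene *28SrRNA-Psi:CR45859*, 382 bases downstream of *2SrRNA-Psi:CR45858*, had 35.2, 109 and 349 CPM in the mutant against 909, 861 and 312 CPM in the control (log2 fold change -2.02 ± 0.82 SE, adjusted p = 0.104, edgeR, and 0.0455 with the replicate number as a block). There the genotypes overlapped in replicate 3.

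The members are spread over the chromosomes unevenly. The right arm of chromosome 2 holds 13 of 34 (38.2%), beside 19.8% of the tested genes, and 2L holds 7 (20.6% beside 19.5%). Chromosome 3, which carries *modulo* on 3R, holds 8 members (23.5%) beside 44.1% of the tested genes, with 4 on each arm, and the closest of them to *mod*, *CG9733*, is 1805357 bases away. The X holds 6 (17.6% beside 15.2%), and 0 lie on chromosome 4 or the Y. Of the 82 genes found with the genotypes exchanged, 53 (64.6%) lie on chromosome 3 and 10 (12.2%) on 2R. These shares are counts without a test, and the tested genes include classes that the rule left out by symbol.

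In other properties of the gene models the members were near the tested genes or apart from them as follows. Protein-coding genes made up 88.2% of the members and 85.3% of tested genes, and pseudogenes 11.8% against 1.27%. The tested genes still include noncoding classes that the rule left out of the members by symbol. That filter sets part of the mix of gene types, and the comparisons in this paragraph are not like for like. A single exon was annotated in 26.5% of the members and 20.5% of tested genes, and the median exon length was 1149 bases in the members and 1648 bases in tested genes. An annotated transposable element lay within 5 kb of 8 members (23.5%), beside 23.9% of tested genes. At least 1 lane value held a fraction of a read pair in 11 members (32.4%) and in 12.5% of tested genes. Of the members, 12 overlap another gene, 7 of them lying wholly inside it, and all but *CG31883* lie on the other strand. The share of tested genes with such an overlap was not computed, so these counts have no background beside them.

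Among the mutant replicates, 17 members were highest in replicate 3, 11 in replicate 1 and 6 in replicate 2, and 16 were lowest in replicate 1. Of all tested genes, 31.3% were highest in mutant replicate 3 and 43.9% lowest in mutant replicate 1. The median coefficient of variation over the mutant replicates was 14.8% in the members and 13.2% in all tested genes, and 4 members, *CG31883*, *Acp33A*, *Or94a* and *AttC*, exceeded 30%. In the same replicates the share of counts on 7SL RNA genes was 2.701%, 4.48% and 5.91% in the mutant against 2.28%, 3.56% and 3.17% in the control. Its part in the order of the replicates was not tested.

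The genes around the members were examined next, taking every gene that overlaps a member and the next gene on each side within 10 kb. They number 61 outside the set, for 32 members, and 54 were tested. Of these, 12 (22.2%, beside 14.5% of all tested genes) were called higher, 9 (16.7%, beside 17.8%) lower, and 33 neither, with a median log2 fold change of -0.06. With the replicate number as a block 13 were higher and 15 lower. The log2 fold changes ran from -2.31 to 5.84, and 10 called neighbours changed by at least 1. Besides those given above, *robo2*, 8020 bases upstream of *CG43401* and encoding a Slit receptor of axon guidance, was called higher, with 7.38, 6.88 and 6.75 CPM in the mutant against 3.63, 2.50 and 3.08 CPM in the control (log2 fold change 1.25 ± 0.13 SE, adjusted p = 0.00061, edgeR). *lncRNA:CR45252*, 35 bases upstream of *CG2736* on the opposite strand, was called lower, with 2.24, 1.88 and 2.37 CPM in the mutant against 8.30, 8.67 and 6.78 CPM in the control (log2 fold change -1.82 ± 0.15 SE, adjusted p = 0.000254, edgeR). Of 15 tested genes next upstream on the member's own strand, 6 were called higher and 1 lower, *lncRNA:CR45277*, *CG7458* and *Gbp3* with the largest values. *lncRNA:CR45277*, counted in the 12 and in the 6, met both CPM conditions and was left out only for its symbol. Its call and its log2 fold change of 5.84 are therefore a description, like the values of the members. The call of *Gbp3* was lost without control replicate 1 or 3 (adjusted p up to 0.0588).

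**Figure D5:**
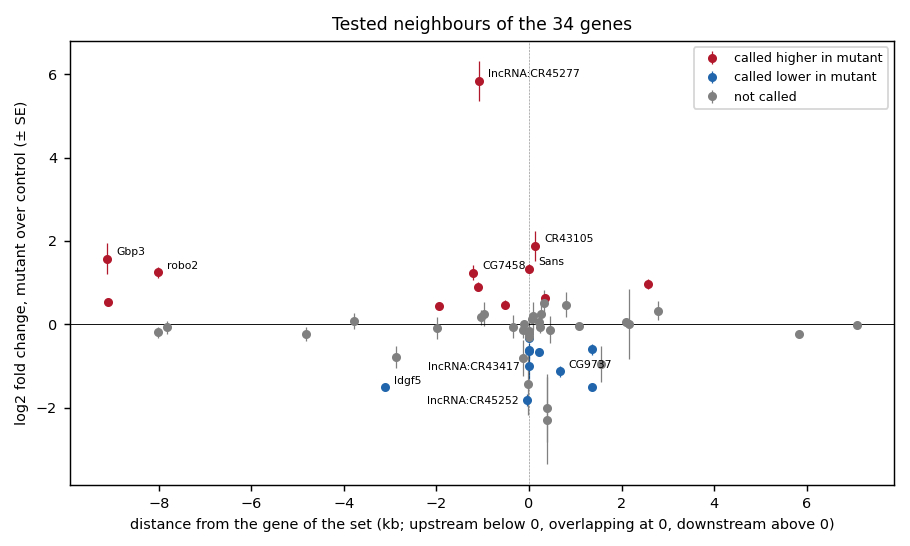
Log2 fold change (mutant over control, ± SE, edgeR) of each tested neighbour outside the set against its distance in kilobases from the member, upstream to the left and downstream to the right, with overlapping genes at 0. Most points lie near 0, *lncRNA:CR45277* beside *phyl* is at 5.84, and *Idgf5* and *GstE2* each appear once for *GstE1* and once for *GstE10*.

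Markers of some cell types in the dissected tissue were compared in the same fit, in which 14.5% of all tested genes were called higher and 17.8% lower (22.2% and 23.4% with the replicate number as a block). No list covered spermatids. Of 9 early germline markers 1 was called higher and 0 lower (median log2 fold change 0.41), of 11 spermatocyte genes 3 higher and 1 lower (0.22), and of 10 cyst and hub markers 1 higher and 1 lower (-0.15). With the replicate number as a block, 5 of 9 early germline markers and 5 of 11 spermatocyte genes were called higher, and 3 of 10 cyst and hub markers lower. DESeq2 called 4 of 9 early germline markers higher and 0 lower. The counts were 5 and 0 for these markers where p under 0.05 was left unadjusted. Of 10 muscle markers 0 were called in either direction by edgeR, whereas 1 was lower with DESeq2 or at an unadjusted p under 0.05 and 1 higher with the block. Of 8 tested fat body genes, another source of antimicrobial peptides, 1 was called higher (*Yp3*) and 2 lower (*Lsp1beta* and *Lsp1gamma*). Fat body genes summed to 107 to 144 CPM in the mutant and 127 to 147 CPM in the control. The part of cell composition in the levels of the 34 genes was not tested.

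Values just inside and just outside the rule were close to each other. The members nearest to the 5-fold condition were *CG43737* at 5.17, *mthl4* at 5.31 and *CG30054* at 5.33 (lowest mutant CPM over highest control CPM), and just outside it were *Sdic1* at 4.96, *CG34393* at 4.88 and *CR31958* at 4.86. The members with the lowest mean mutant CPM were *Or47a* at 0.602 and *phyl* at 0.768, and just below the level condition were *CG33965* at 0.447 and *CR32496* at 0.429.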

How the data were processed

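The authors sequenced rRNA-depleted total RNA from adult testes in read pairs, mapped them to BDGP6/dm6 with STAR 2.7.1a, and counted them on FlyBase genes by strand with featureCounts. A pair with several positions was divided among them, so the deposited values are estimated counts per gene and lane, not normalized and not always whole. A deposited table of all lanes holds identical values and was not used.

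The 3 lanes of each replicate were summed and rounded, and 17512 of 17575 identifiers matched the annotation BDGP6.54, on the same release 6 assembly, which gave symbols, positions and gene types. For tests, the whole table was fitted, after a filter that kept genes reaching 10 counts in 3 or more samples, with edgeR 4.0.16 (TMM, quasi-likelihood, Benjamini-Hochberg) in R 4.3.3. DESeq2 1.42.0 was an alternative. A two-sided exact permutation test of 1 gene has a smallest p of 0.1 at this sample size. On simulated counts for 13949 genes, edgeR recovered 80% of genes changed 2-fold and 98% of those changed 4-fold, with 4.59% false calls. The simulated samples were independent, each gene's spread followed the trend over all genes, and 50 genes were changed at each fold. In the data far more genes were called and replicates may be paired, so these rates need not hold there.

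The labels number the replicates of both genotypes 1 to 3. Deviations from the genotype means correlated at 0.573, 0.591 and 0.171 between same-numbered samples and at -0.595 to 0.0884 otherwise. The deviations of 3 replicates sum to 0, which ties these values to each other, and 0.171 for replicate 3 is near 0.0884. What a replicate number shares is not stated, so pairing was regarded as possible and not as settled. The main fit, which gave every call unless stated otherwise, had no block, and a fit with the replicate number as a block was an alternative. Its values stand beside a named gene whose call they change and beside a count they move by over 1.5 times.

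Every member may be named. CPM per sample, interval and position are given for the 12 members with the highest mean mutant CPM, the 8 with the largest ratio of lowest mutant to highest control CPM, members within 10 kb of another member and members of a shared family. Genes outside the set are named as neighbours, paralogs or list members, and genes just outside the rule once. The members, lists and families were chosen with earlier results of these data known. Alternatives were other scalings, single lanes, other limits of the rule, other filters, DESeq2, the block, other distances and each replicate left out.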

Additional observations from a re-analysis of the deposited data

How the results depend on the processing

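The number of genes meeting the rule was 36 with TMM library sizes, 35 with ribosomal and mitochondrial genes left out of the totals, 30 to 33 from single lanes and 34 to 40 without any 1 replicate. It was 43 at a fold of 4, 17 at a fold of 10, 37 at a mean of 0.25 CPM and 32 at a mean of 1 CPM. The ratios of members moved by less than the spread between replicates in 271 of 272 recalculations, the exception being *CG7236* at 6.97 with TMM library sizes against 6.71. That spread was wide for *Acp33A*, whose ratio ran from 66.9 to 206 without any 1 replicate, against 100.3. The replicate block moved the counts of calls: under it 3119 genes were higher in the mutant, against 2043 without it, and 3288 were lower, against 2503. Without any 1 replicate, 919 to 2792 genes were called higher and 1694 to 3106 lower, the fewest higher calls without mutant replicate 2 (919) and also fewer without control replicate 1 (1218), 2 (1202) or 3 (1058). The neighbours called higher numbered 9 to 13 under every alternative, 12 in the main analysis, with 9 within 5 kb and 12 within 20 kb. The list genes called higher outside the set numbered 18, and 27 both with DESeq2 and with the block. Of 3024 recalculated log2 fold changes of neighbours, paralogs and list genes, 0 reversed a call, 85 lost one and 95 gained one. Members with fewer than 10 control counts have wide intervals, so the order of the largest ratios is set in part by a few read pairs.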

Other observations

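Other lists of genes without a member in the set were counted in the same edgeR fit. Of all tested genes that fit called 14.5% higher and 17.8% lower, and the fit with the replicate number as a block 22.2% and 23.4%. Of 7 eye pigment and transport genes 2 were called higher and 2 lower. *w*, which encodes the ABC transporter White, had 20.03, 22.8 and 23.6 CPM in the mutant against 13.2, 13.7 and 12.7 CPM in the control (log2 fold change 0.80 ± 0.10 SE, adjusted p = 0.00134, edgeR), and *cd*, an ommochrome pathway gene, had 2.12, 2.28 and 1.89 CPM in the mutant against 6.62, 5.74 and 5.97 CPM in the control (log2 fold change -1.49 ± 0.10 SE, adjusted p = 0.000104, edgeR). Of 13 tested stress genes, Turandot and heat shock genes together, 0 were called higher and 2 lower, with the same counts by DESeq2, at an unadjusted p under 0.05 and with the replicate number as a block. *Hsp26* and *Hsp27* were those called lower, with log2 fold changes of -0.48 ± 0.10 (SE, adjusted p = 0.011, edgeR) and -0.30 ± 0.07 (SE, adjusted p = 0.0162, edgeR), and the call of *Hsp26* was lost without control replicate 3 (adjusted p = 0.0529, edgeR). The call of *Hsp27* was lost without mutant replicate 2 (adjusted p = 0.0725, edgeR), without control replicate 1 and without control replicate 3, and was kept in 3 of 6 such fits. Of the gut and eggshell lists 2 genes each had enough counts to test. With the replicate number as a block, both gut genes were called higher and both eggshell genes lower. The amylase gene *Amy-d* was called higher (log2 fold change 1.08 ± 0.24 SE, adjusted p = 0.0132, edgeR), although reads of the near-identical *Amy-p* could be split between both copies in the counting, and the chorion gene *Cp18* lower (-1.67 ± 0.21 SE, adjusted p = 0.00145, edgeR).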
